A study of Brassica juncea with 2 samples.

Results

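The transcripts described here are the ATP-binding cassette (ABC) transporter unigenes of *Brassica juncea* var. CS52, a salinity-tolerant variety of Indian mustard. A unigene is a transcript sequence assembled from the reads. Members were all unigenes whose annotation contained ABC transporter, ABC-2 type, ABC2 homolog, ATP-binding cassette, P-glycoprotein or white-brown complex, which gave 77 of 47513 unigenes. Of these, 74 were in the series that matched *B. rapa* transcripts (rapa unigenes) and 3 were in the other, non-rapa series. The rule used names only, and no measured value.

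Two-week-old wild type seedlings grown hydroponically were compared in 2 libraries. SS seedlings had been kept for 24 h in 200 mM salt, and CTRL seedlings had been kept in water and were collected at the same time. Each library came from the pooled tissue of about 10 seedlings, with no organ named. The design therefore holds 1 SS library and 1 CTRL library, without replicates, so that no test across samples was possible and every interval given here is a 95% interval for the counting of reads only. PCR copies and the spread between pools of seedlings are not part of these intervals.

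ABC proteins use ATP, bound and split by a nucleotide-binding domain, to move substrates across a membrane. Plants carry many more of them than animals do, and name their subfamilies by letters. In Arabidopsis, several ABCB proteins (the P-glycoproteins) carry auxin, several ABCG half-size proteins (the white-brown complex, or ABC-2 type, proteins) carry lipids of cuticle, suberin and pollen wall or plant hormones, ABCA proteins are related to lipid transporters of animals, and ABCD proteins bring fatty acyl compounds into the peroxisome. A few names caught by the rule stand for something else. Unigenes named ABC transporter 1, ABC2 homolog 9 and ABC2 homolog 13 carry names of the ABC1 kinase-like family (activity of bc1 complex), whose members are not transporters. They are described apart as ABC1-like, but counts and sums over all members include them.

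By these names the 77 unigenes comprised 12 of ABCA, 23 of ABCB, 2 of ABCD, 26 of ABCG, 1 of ABCI, 8 that could not be placed from the annotation and 5 that were ABC1-like. Many were short. Recovered lengths ran between 305 and 4646 bp with a median of 785 bp, against a median of 744 bp over all unigenes. The 77 unigenes matched 47 different database entries, and 48 of them shared their match with at least 1 other member. Unigenes with 1 match can be pieces, alleles or homeologous copies of 1 gene, and reads can be divided among them, so that their values are not independent.

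The libraries held 73982305 reads on unigenes in SS and 77863739 in CTRL, which were 82.4% and 82.1% of the high-quality reads. Levels are given as RPKM, reads scaled by the length of the unigene and the high-quality reads of the library, and both libraries use the same length for a unigene. Among tissue markers, the 24 leaf unigenes (photosystem subunits, light harvesting proteins and the small subunit of ribulose bisphosphate carboxylase) summed to 39980 RPKM in SS and 42190 RPKM in CTRL, and the 13 root unigenes summed to 51.9 RPKM in SS and 52.2 RPKM in CTRL. None of either list was at 0 in a library. Of the 24 leaf unigenes 2 were at least 2-fold lower in SS, and the part of tissue shares in the ABC values was not tested. In such pools, fewer cells of a type cannot be told apart from less RNA in each cell.

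ABC transcripts as a group were a small share of the reads and slightly lower in SS. They took 60061 reads in SS (0.0812% of the reads on unigenes) and 69215 reads in CTRL (0.0889%). Scaled to the high-quality reads of each library, the summed reads in SS were 0.917 times those in CTRL (0.907 to 0.927). Members over 2000 bp held 44955 of these reads in SS and 52645 in CTRL, and their levels summed to 182.0 RPKM in SS and 202.5 RPKM in CTRL. All rapa unigenes of that length were also lower in SS when summed, at 38690 RPKM in SS and 40040 RPKM in CTRL. Without the ABC1-like unigenes the sums were 52545 reads in SS and 59925 in CTRL. Most members were at low levels. Their median was 1.82 RPKM in SS and 2.27 RPKM in CTRL, against 2.85 RPKM in SS and 3.04 RPKM in CTRL over all unigenes. Only 8 of 77 reached 10 RPKM in either library, and 31 stayed under 2 RPKM in both.

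The 2 highest members were ABC-2 type unigenes. Bju_CS52_R_25316 (1658 bp; the prefix Bju_CS52 is left out from here on) had 39.1 RPKM in SS and 36.6 RPKM in CTRL. R_29553 (2841 bp) had 37.0 RPKM in SS and 32.8 RPKM in CTRL. Next came R_28146, named only ABC transporter family protein, with 29.8 RPKM in SS and 31.8 RPKM in CTRL, and the ABC1-like R_29470 (ABC2 homolog 13) with 24.9 RPKM in SS and 29.1 RPKM in CTRL. These 4 lay within 1.2-fold of equal levels. The unplaced R_9751 had 18.4 RPKM in SS and 21.3 RPKM in CTRL. The ABC-2 type unigene R_14912 had 11.1 RPKM in SS and 11.4 RPKM in CTRL, R_29306 had 10.5 RPKM in SS and 11.8 RPKM in CTRL, and R_28780 had 7.40 RPKM in SS and 7.97 RPKM in CTRL. R_28900, also of ABC-2 type, had 7.18 RPKM in SS and 13.4 RPKM in CTRL and was the single one of the 10 highest whose levels differed by more than 1.2-fold. The peroxisomal R_30483, ninth by mean RPKM, is described with its subfamily.

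**Figure D1:**
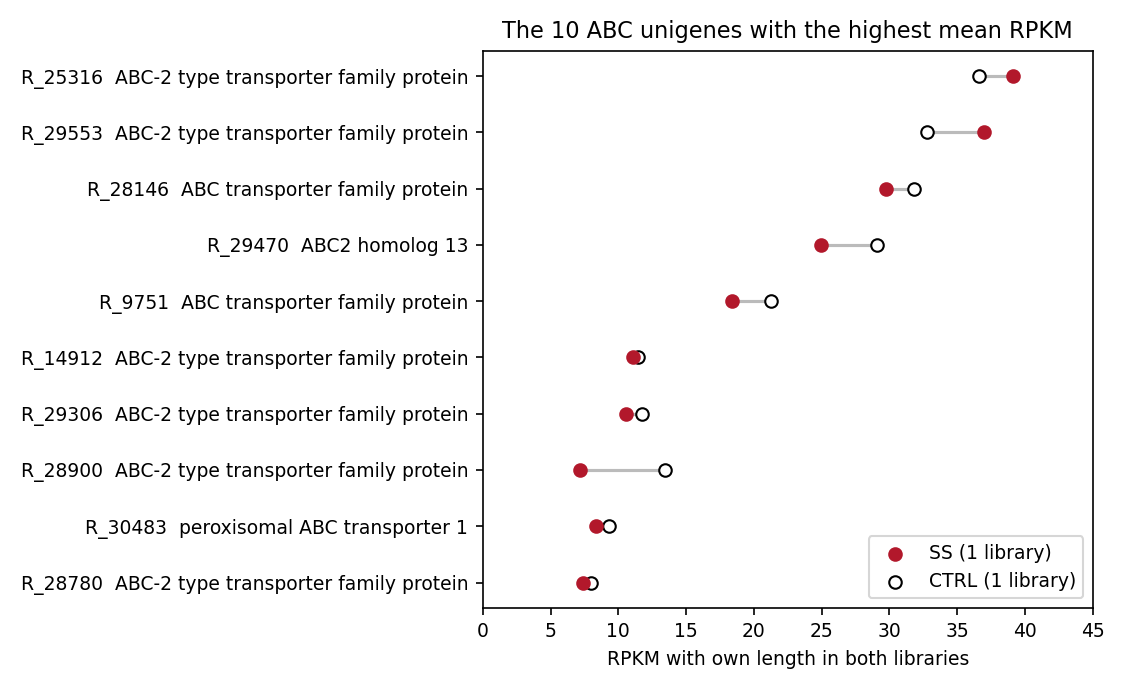
Levels of the 10 ABC unigenes with the highest mean RPKM, on a linear axis in RPKM, with filled points for the SS library, open points for the CTRL library and a line joining them. The points of a unigene lie close together except for R_28900, at 7.18 RPKM in SS and 13.4 RPKM in CTRL.

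For the comparison of SS with CTRL, log2 ratios were taken of RPKM plus 0.1 in each library, for unigenes that reached 1 RPKM in SS, in CTRL or in both. This minimum kept 70 of the 77 members. Of these 58 reached 1 RPKM in both libraries, 3 in SS only and 9 in CTRL only, and a unigene that passed in 1 library only had to differ in that direction. A unigene is called higher or lower where the log2 ratio reached 1 or -1, a 2-fold difference. Of the 70 members 2 were higher in SS and 5 were lower. Over all 43250 unigenes with the same minimum, 1.91% were higher and 4.21% were lower, and the members' shares were 2.86% and 7.14%. These shares are counts of 2 and 5 unigenes beside the background, and no difference from it was tested. With a pseudocount of 1 RPKM in place of 0.1, which draws low levels together, R_687 (-1.28) alone of the 7 stayed past 2-fold.

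Below the 2-fold limit, most members lay on the lower side. The log2 ratio was below 0 for 56 of 70 members (80.0%), against 57.4% of all unigenes tested and 62.2% of rapa unigenes. The median was -0.22 for the members, -0.06 for all unigenes and -0.10 for rapa unigenes. Without the ABC1-like unigenes, 51 of 65 tested members were below 0 (78.5%) and the median was -0.21. For 37 members the counting interval of the ratio lay wholly below 1, for 7 wholly above 1, and for 26 it spanned 1. The same counts were not made over all unigenes, so these have no background beside them. An interval also narrows with the number of reads, and a small difference in a well covered unigene can leave 1 outside it.

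**Figure D2:**
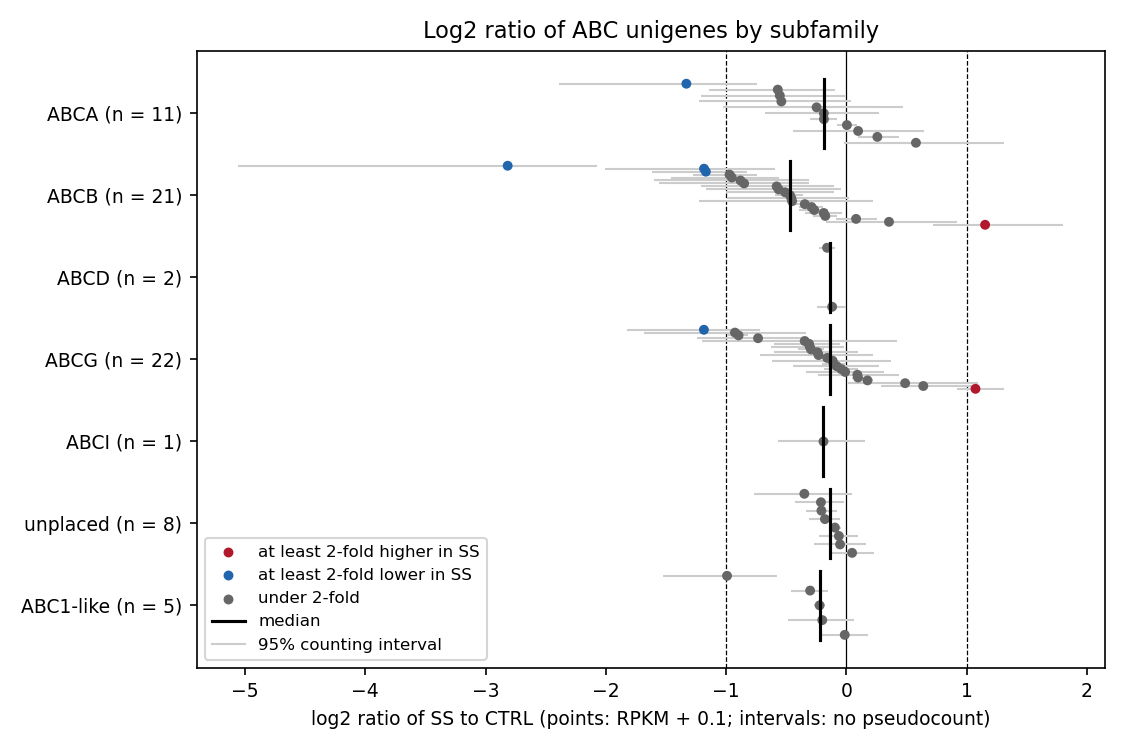
Log2 ratio of SS to CTRL for the 70 tested ABC unigenes, by subfamily, with 95% counting intervals as grey lines, subfamily medians as black bars and dashed lines at 2-fold. Most points lie left of 0, the 21 ABCB unigenes have the lowest median (-0.47), and the 2 unigenes past 2-fold on the right are an ABCB and an ABCG.

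The ABCB subfamily held 4 of the 7 unigenes past 2-fold, and its unigenes were short, with a median of 526 bp. Of its 21 tested unigenes 18 had a log2 ratio below 0, 3 were at least 2-fold lower, 1 was at least 2-fold higher, and the median was -0.47. The 3 called lower were at most 526 bp long, and 8.24% of all tested rapa unigenes of up to 600 bp were lower, against 4.21% of all unigenes. Summed over the 23 ABCB members, levels were 53.5 RPKM in SS and 71.3 RPKM in CTRL.

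P-glycoprotein 21 is a close relative of the auxin transporter P-glycoprotein 4 in Arabidopsis, and its Arabidopsis protein moves auxin itself. Both of its unigenes were at least 2-fold lower in SS. R_9406 (526 bp) had 77 reads in SS (61 to 96) and 189 in CTRL (163 to 218), or 1.63 RPKM in SS and 3.79 RPKM in CTRL, a log2 ratio of -1.17. R_687 (311 bp) had 5 reads in SS (1.62 to 11.7) and 55 in CTRL (41.4 to 71.6), or 0.179 RPKM in SS and 1.86 RPKM in CTRL, a log2 ratio of -2.82. Scaled to the depth of each library, the ratio was 0.430 (0.326 to 0.564) for R_9406 and 0.0960 (0.0300 to 0.238) for R_687. R_687 reached 1 RPKM in CTRL only. R_9406 was no longer past 2-fold with a pseudocount of 1 RPKM (-0.86) or with the running median of all unigenes along the unigene number removed (-0.96). Both matched *B. rapa* gene Bra003490. With reads and lengths summed over them, 82 reads in SS stood against 244 in CTRL, which is -1.41 on the log2 scale and a ratio of 0.355 (0.273 to 0.458).

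P-glycoprotein 11 had 3 unigenes on 2 *B. rapa* genes, of which 1 was past 2-fold and all had log2 ratios below 0. R_2230 (337 bp) had 25 reads in SS and 64 in CTRL and a log2 ratio of -1.18, and reached 1 RPKM in CTRL only. The longer R_19108 (1061 bp) had 175 reads in SS and 372 in CTRL, or 1.84 RPKM in SS and 3.70 RPKM in CTRL, a log2 ratio of -0.97 just inside the 2-fold limit. R_6419 (431 bp), on the other *B. rapa* gene, had 34 reads in SS and 68 in CTRL and a log2 ratio of -0.85. Like R_2230, R_6419 reached 1 RPKM in CTRL only. The counting interval of the ratio stayed below 1 for each of the 3, with the nearest bound at 0.809 for R_6419. Summed over Bra033331, the match of R_2230 and R_19108, 200 reads in SS stood against 436 in CTRL, a log2 ratio of -1.001.

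P-glycoproteins 6 and 20 are a closely related pair that carries auxin in Arabidopsis. All 6 unigenes of P-glycoprotein 6 had log2 ratios below 0, between -0.88 and -0.19, and none reached 2-fold. The longest, R_30426 (4207 bp), had 1826 reads in SS and 2460 in CTRL, or 4.84 RPKM in SS and 6.17 RPKM in CTRL, a ratio of 0.784 (0.738 to 0.833). R_29694 (2952 bp) on the same *B. rapa* gene had 5.59 RPKM in SS and 6.85 RPKM in CTRL, a ratio of 0.816 (0.762 to 0.874). On the second gene, Bra000136, the longest unigene R_21093 (1218 bp) had 5.78 RPKM in SS and 6.60 RPKM in CTRL, a ratio of 0.876 (0.787 to 0.975), and 3 shorter ones had log2 ratios between -0.88 and -0.51. Both genes gave nearly the same summed log2 ratio, -0.32 for Bra005036 and -0.28 for Bra000136. The single unigene of P-glycoprotein 20, R_8053 (480 bp), had 63 reads in SS and 133 in CTRL and a log2 ratio of -0.95.

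P-glycoprotein 14 is known in Arabidopsis as a malate importer of guard cells. Its long unigene R_30303 (3751 bp) had 1015 reads in SS and 1297 in CTRL, or 3.01 RPKM in SS and 3.65 RPKM in CTRL, a ratio of 0.827 (0.761 to 0.898), and the shorter R_13847 had a log2 ratio of -0.58. R_13847 passed the minimum in CTRL only. The remaining P-glycoproteins went other ways or were too sparse to place. The unigene of P-glycoprotein 13, R_10912 (586 bp), was higher in SS, with 97 reads (78.7 to 118) against 43 in CTRL (31.1 to 57.9), or 1.84 RPKM in SS and 0.774 RPKM in CTRL, a log2 ratio of 1.15. It passed the minimum in SS only. The 3 unigenes of P-glycoprotein 9 summed to 137 reads in SS and 131 in CTRL, a ratio of 1.10 with an interval that spanned 1 (0.863 to 1.42), and P-glycoprotein 7 was under the minimum with 25 reads in SS and 29 in CTRL.

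Of the remaining ABCB members none reached 2-fold. ABC transporter of the mitochondrion 3 exports a sulphur compound for the assembly of iron-sulphur proteins in the cytosol. R_28729 (2397 bp), the highest ABCB unigene, had 6.58 RPKM in SS and 7.44 RPKM in CTRL, a log2 ratio of -0.17, the ABCB value nearest to 0 among those of at least 5 RPKM. R_28154 on the same gene had 2.90 RPKM in SS and 2.74 RPKM in CTRL, a log2 ratio of 0.08 with an interval that spanned 1. ABC2 homolog 12 gave the lowest log2 ratio of an ABCB unigene of at least 5 RPKM, -0.47 for R_27929, with 1019 reads in SS and 1497 in CTRL, and the shorter R_4364 gave -0.46.

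Among the ABCG members the range of log2 ratios was narrower than among the ABCB members, and the median was nearer to 0. Of 22 tested unigenes 16 had a log2 ratio below 0, 1 was at least 2-fold higher, 1 was at least 2-fold lower, and the median was -0.14. Levels summed over all 26 members were 146 RPKM in SS and 152 RPKM in CTRL. The annotation ABC-2 type transporter family protein covered 23 of the 26 and does not say which ABCG protein a unigene is. Full-size ABCG proteins, named pleiotropic drug resistance, lie outside the words of the rule. The 24 tested unigenes with that name had a median log2 ratio of -0.42 and ran between -1.20 and 3.80.

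The ABC-2 type unigene that was higher in SS was R_26628 (1848 bp). It had 642 reads in SS (593 to 694) and 313 in CTRL (279 to 350), or 3.87 RPKM in SS and 1.79 RPKM in CTRL, a log2 ratio of 1.07 and a ratio of 2.17 (1.89 to 2.49). It was the only member over 600 bp past 2-fold in either direction. The other unigenes with the same match, Bra018911, had log2 ratios below 0. R_10714 (578 bp) had 71 reads in SS and 89 in CTRL, R_322 (305 bp) had 24 in SS and 33 in CTRL, and the interval of each ratio spanned 1. R_322 passed the minimum in CTRL only. Summed over the 3, the log2 ratio was 0.80.

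The ABC-2 type unigene past 2-fold on the lower side was R_5880 (416 bp), with 40 reads in SS (28.6 to 54.5) and 101 in CTRL (82.3 to 123), or 1.07 RPKM in SS and 2.56 RPKM in CTRL, a log2 ratio of -1.18. The better covered R_28900 (2468 bp) stayed just under 2-fold. It had 1590 reads in SS (1513 to 1670) and 3145 in CTRL (3036 to 3257), a log2 ratio of -0.90 and a ratio of 0.534 (0.502 to 0.567). Among the 21 members of at least 5 RPKM in either library, this was the largest difference. The 2 most abundant ABC-2 type unigenes were slightly higher in SS, R_29553 with a ratio of 1.13 (1.10 to 1.16) and R_25316 with a ratio of 1.07 (1.03 to 1.11), and R_14912 was closest to equal among ABCG unigenes of at least 5 RPKM, at 0.971 (0.880 to 1.07).

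Among the other ABC-2 type unigenes of at least 5 RPKM, the ratio was 0.895 (0.848 to 0.944) for R_29306, 0.928 (0.868 to 0.993) for R_28780 and 0.814 (0.755 to 0.878) for R_27755. The 3 unigenes on Bra026514 stood on both sides of 0. R_15752 (838 bp) had 137 reads in SS and 90 in CTRL, a log2 ratio of 0.64, while R_16411 (876 bp) gave -0.01 and R_14928 (785 bp) gave -0.24. R_15154 (800 bp) had 72 reads in SS and 52 in CTRL, a log2 ratio of 0.49, and reached the minimum in SS only. The remaining tested ABC-2 type unigenes lay between -0.30 and 0.09, and 4 were under the minimum in both libraries.

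ATP-binding cassette 14 is the Arabidopsis transporter that loads root-made cytokinin for transport to the shoot. Its 2 unigenes, on 1 *B. rapa* gene, had 195 reads in SS and 258 in CTRL (R_20240, 1144 bp) and 63 reads in SS and 114 in CTRL (R_9438, 528 bp). The log2 ratios were -0.31 and -0.73, both intervals lay below 1, and the summed log2 ratio was -0.43. White-brown complex homolog 19, known from resistance to kanamycin in plants that overexpress it, had 29 reads in SS and 61 in CTRL on a single unigene of 328 bp, a log2 ratio of -0.93. That unigene reached 1 RPKM in CTRL only.

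In the ABCA subfamily, unigenes with 1 match differed among themselves. Of 11 tested unigenes 7 had a log2 ratio below 0, 1 was at least 2-fold lower, none was 2-fold higher, and the median was -0.19. ATP-binding cassette A1, the full-size ABCA of plants, had 8 unigenes on Bra000236. The longest, R_30362 (3895 bp), had 2189 reads in SS and 2304 in CTRL, or 6.26 RPKM in SS and 6.24 RPKM in CTRL, a ratio of 1.004 (0.946 to 1.06). The short R_8735 (503 bp) had 18 reads in SS (10.7 to 28.4) and 55 in CTRL (41.4 to 71.6), a log2 ratio of -1.33, and was the only ABCA unigene past 2-fold. It reached 1 RPKM in CTRL only. The other 6, all of 371 to 624 bp and 1 of them under the minimum, had log2 ratios between -0.57 and 0.10. Among them, R_7055 (-0.55) passed the minimum in CTRL only. Summed over the 8, 2490 reads in SS stood against 2748 in CTRL, a log2 ratio of -0.06 and a ratio of 0.957 with an interval that spanned 1 (0.906 to 1.01).

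The half-size ABCA unigenes were all under 2-fold. ATP-binding cassette A2 (R_29744, 3009 bp) had 4.39 RPKM in SS and 5.01 RPKM in CTRL, a ratio of 0.877 (0.811 to 0.947). ABC2 homolog 6 went the other way, with 4.10 RPKM in SS and 3.41 RPKM in CTRL on its longer unigene R_25213 (1645 bp), a ratio of 1.20 (1.07 to 1.35), and a log2 ratio of -0.25 on its 371 bp unigene R_3920. R_3920 passed the minimum in CTRL only. ABC2 homolog 4 (R_6462, 433 bp) had 50 reads in SS and 34 in CTRL, a log2 ratio of 0.58 with an interval of the ratio that spanned 1 (0.985 to 2.48). R_6462 passed the minimum in SS only.

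Both peroxisomal members had log2 ratios slightly below 0. Peroxisomal ABC transporter 1 imports substrates for β-oxidation, among them storage lipid fatty acids and precursors of jasmonic acid and auxin. Its unigene R_30483, the longest member at 4646 bp, had 3473 reads in SS and 4104 in CTRL, or 8.33 RPKM in SS and 9.32 RPKM in CTRL, a ratio of 0.894 (0.854 to 0.935). With the running median of log2 ratios along the unigene number subtracted, R_30483 stood at 0.04. NR_21982, a non-rapa unigene named after the yeast long-chain fatty acid transporter PXA1, had 5.42 RPKM in SS and 5.89 RPKM in CTRL, a log2 ratio of -0.12. The only ABCI name within the words of the rule, a channel subunit annotated to cytochrome c1 (NR_15820), had 119 reads in SS and 145 in CTRL, a ratio of 0.867 with an interval that spanned 1 (0.674 to 1.11). Outside the rule, 7 ABCI unigenes named non-intrinsic ABC protein were tested. Of these 5 had a log2 ratio above 0 and 2 below 0, with a median of 0.08.

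Among the unplaced members all 8 were tested, none reached 2-fold, and the log2 ratios ran between -0.35 and 0.05 with a median of -0.14. The abundant R_28146 (2190 bp) had 5853 reads in SS and 6604 in CTRL, a ratio of 0.936 (0.904 to 0.970), and R_9751 (540 bp) had 892 reads in SS and 1088 in CTRL, a ratio of 0.866 (0.792 to 0.947). R_18642 and R_18575, which shared a match, had ratios of 0.957 and 1.03 with intervals that both spanned 1. The lowest of the 8 was the non-rapa NR_4209 (364 bp), with 90 reads in SS and 122 in CTRL.

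Of the 5 ABC1-like unigenes none reached 2-fold and all had log2 ratios below 0. ABC2 homolog 13 (R_29470, 2784 bp), a chloroplast protein in Arabidopsis, had 6227 reads in SS and 7675 in CTRL, a ratio of 0.857 (0.829 to 0.886). ABC transporter 1, whose yeast counterpart is needed for ubiquinone synthesis, had a long unigene R_27230 (1958 bp) with a log2 ratio of -0.30 and a short one, R_7515 (464 bp), with 56 reads in SS and 122 in CTRL and a log2 ratio of -0.99. The 2 unigenes of ABC2 homolog 9 gave -0.20 and -0.01.

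Unigenes of 1 match did not always lie on 1 side. Of the 18 matches with several members, 10 had all their log2 ratios below 0 and none had them all above 0. With reads and lengths summed over each match, 45 of the 47 matches passed the minimum, of which 1 was at least 2-fold higher (P-glycoprotein 13), 3 were at least 2-fold lower (P-glycoprotein 21, P-glycoprotein 11 on Bra033331 and the ABC-2 type Bra003208), 35 were below 0 and the median was -0.17.

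**Figure D3:**
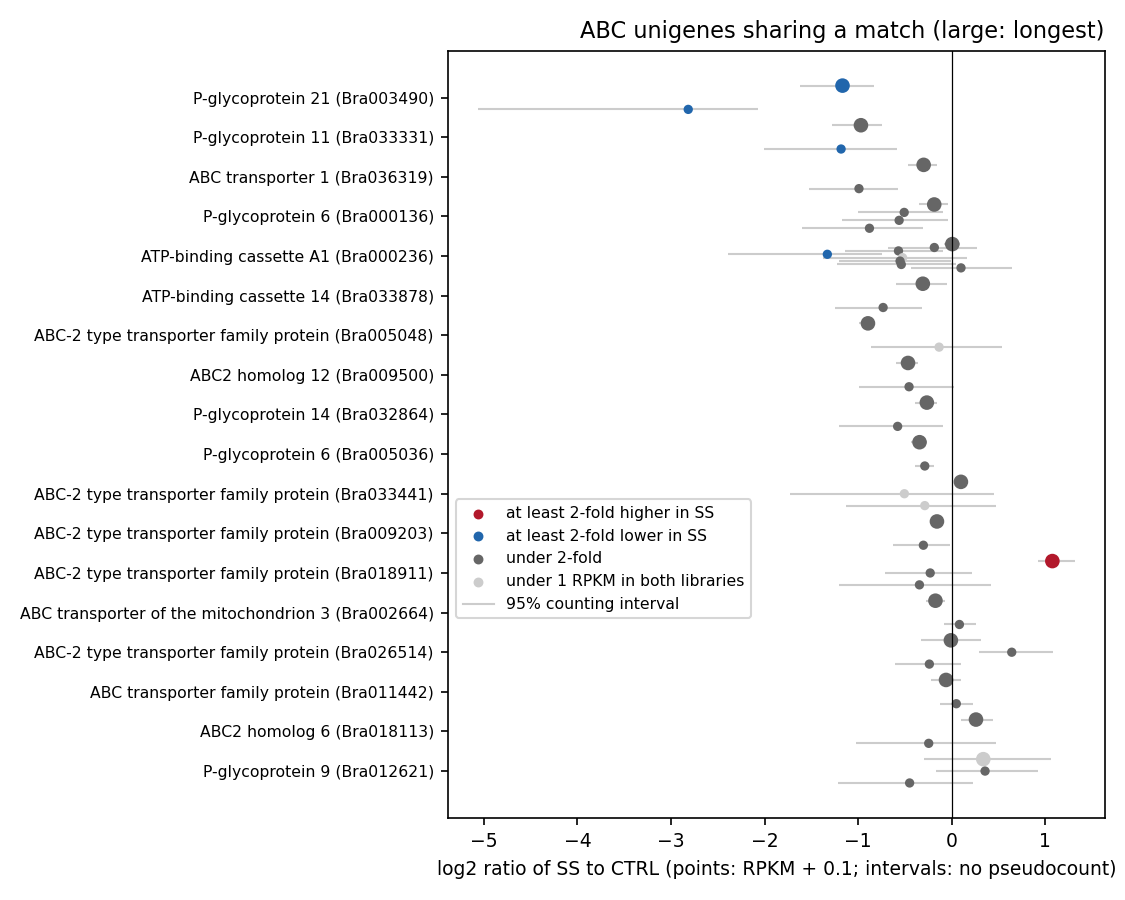
Log2 ratio of SS to CTRL for the 48 ABC unigenes that share a match with another member, 1 row per match ordered by its median, with 95% counting intervals as grey lines and the longest unigene of each match as a large point. Rows at the top (P-glycoproteins 21 and 11) lie wholly left of 0, while ATP-binding cassette A1 spreads between -1.33 and 0.10 around a longest unigene at 0.00.

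The called members were mostly short. All 5 unigenes called lower were at most 600 bp long, and so was the called P-glycoprotein 13. Of 27 tested members of up to 600 bp, 1 was higher and 5 were lower, 23 were below 0 and the median log2 ratio was -0.55. Among all tested rapa unigenes of up to 600 bp, 1.99% were higher and 8.24% were lower, with a median of -0.21. Of 43 tested members over 600 bp, 1 was higher and 0 were lower, 33 were below 0 and the median was -0.18. Among all rapa unigenes over 600 bp 0.758% were higher and 2.41% were lower, with a median of -0.07. The longest rapa unigenes lay lower than that. Over 2000 bp, 69.5% of tested rapa unigenes were below 0 with a median of -0.11. Of the 19 members over 2000 bp, 16 were below 0 and the median was -0.18. Short members also had fewer reads, a median of 99.5 over both libraries together, against 1279 for longer ones. With the running median of the log2 ratio along the unigene number subtracted, a number that rises with length, R_687 (-2.53) and R_8735 (-1.17) were still past 2-fold, R_5880 stood at the limit itself, and R_9406 (-0.96) and R_2230 (-0.91) were not.

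**Figure D4:**
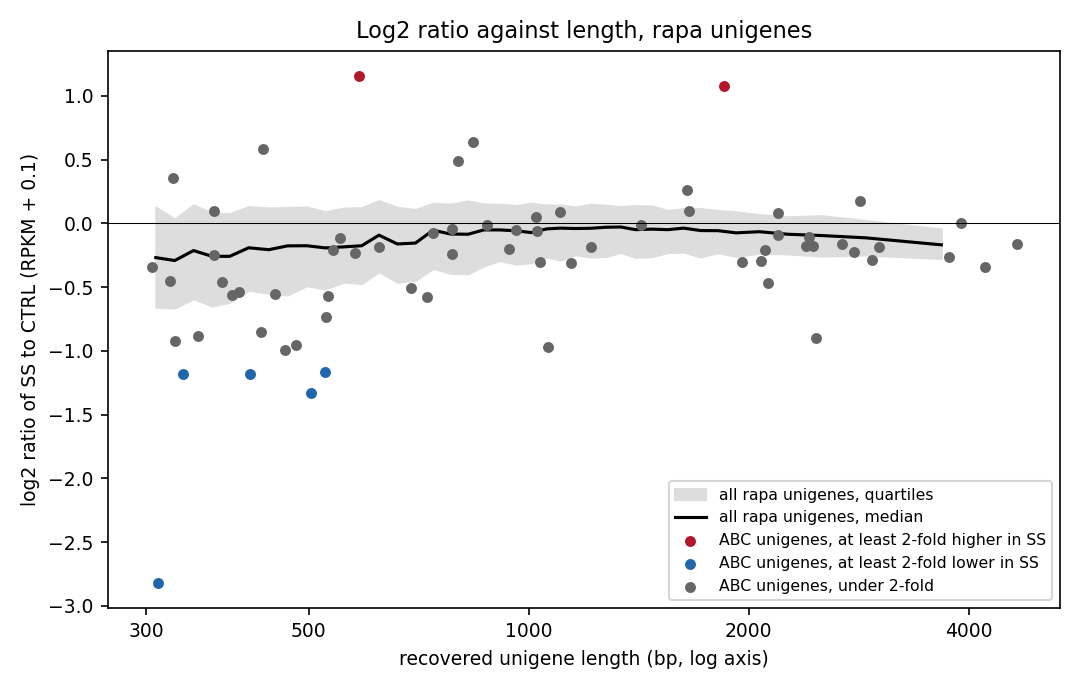
Log2 ratio of SS to CTRL against recovered unigene length on a log axis, for the tested rapa ABC unigenes (points) over the median and quartiles of all tested rapa unigenes (black line and grey band). The 5 unigenes past 2-fold on the lower side are all at most 526 bp long, where the black line lies furthest below 0, and R_26628 stands alone above 1 among longer unigenes.

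The scale of the deposited SS values decides the direction of many members. The deposited CTRL values divide reads by each unigene's length, while the deposited SS values divide by 849 bp for every unigene, so that a long transporter appears higher in SS and a short one lower. On the deposited values 34 of the 77 members were above CTRL, and with own lengths 15 were. The side changed for 27. R_28900, with deposited values of 20.9 in SS and 13.4 in CTRL, was one of them.

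Another 95 unigenes carried names of the ABC superfamily outside the words of the rule, mainly multidrug resistance-associated proteins (ABCC, vacuolar carriers of conjugates) and pleiotropic drug resistance proteins (full-size ABCG). A further set of name words picked them, and other ABC names may lie outside that set. Of 90 tested, 3 were higher and 5 were lower, beside 1.91% and 4.21% of all unigenes, and the median log2 ratio was -0.14. All 3 that were higher were pleiotropic drug resistance unigenes. So were 2 of the 5 that were lower, R_21695 (-1.20) and R_6342 (-1.10), and each of these passed the minimum in CTRL only. Of the 24 tested unigenes of this name, 15 were below 0. R_30385 (pleiotropic drug resistance 9, an exporter of iron-chelating coumarins from Arabidopsis roots) had 912 reads in SS and 34 in CTRL, or 2.54 RPKM in SS and 0.0897 RPKM in CTRL, a ratio of 28.3 (20.1 to 41.2), and passed the minimum in SS only. The match Bra003137 had 6 other unigenes of this name, and they lay on both sides of 0. The most abundant, R_30487, had 13.9 RPKM in SS and 27.8 RPKM in CTRL, a log2 ratio of -0.99. R_29611 gave -0.65, R_18541 0.89, R_2920 0.42 and R_1637 -0.24, and R_13627 was under the minimum with 8 reads in SS and 23 in CTRL. Of the 3 unigenes of pleiotropic drug resistance 3, R_11670 and R_4819, which shared a match, had log2 ratios of 1.35 and 1.19, and R_1351 was under the minimum with 5 reads in SS and 3 in CTRL. R_4819 also passed the minimum in SS only. None of the 42 tested multidrug resistance-associated unigenes was 2-fold higher and 2 were 2-fold lower. Of 7 unigenes named ATP binding cassette without a hyphen, 6 were below 0, 1 was 2-fold lower and none was 2-fold higher. The lower one, R_17369 (subfamily B4), had 104 reads in SS and 254 in CTRL, a log2 ratio of -1.15. Other B4 unigenes gave -0.98 (R_5685) and -0.49 (R_15765).

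Groups that work beside ABC transporters are given beside the same background of 1.91% higher and 4.21% lower, with no test of a difference from it or from the ABC unigenes. For MATE efflux carriers, another family of exporters, 1 of 44 tested unigenes was higher and 3 were lower, with a median log2 ratio of -0.19. For glutathione S-transferases, which make conjugates that ABCC proteins carry, 0 of 48 were higher and 2 were lower, with a median of -0.09. For enzymes of cuticle and suberin synthesis, which make substrates of ABCG proteins, 0 of 30 were higher and 2 were lower, with a median of -0.11. For auxin carriers outside the ABC family 0 of 20 were higher, 1 was lower and the median was -0.11, and for iron-sulphur cluster assembly 0 of 12 passed 2-fold in either direction and the median was 0.13.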

How the data were processed

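Transcript levels were measured by RNA-seq of poly(A) RNA in 1 CTRL and 1 SS library. Per the labels and methods, the authors split the reads with Tophat on *B. rapa*, assembled them with Trinity, clustered transcripts with CD-HIT-EST, and mapped the reads with BOWTIE2. DESeq is named for normalization. For Tophat, Trinity and BOWTIE2 the version is not given in the sources used here, nor is the treatment of reads that map to several unigenes.

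The deposited CTRL column is RPKM on each unigene's length and 94800630 high-quality reads. The deposited SS column carries the same name but is a signal proportional to reads: divided by its step, each of the 47505 listed values is a whole number of reads, with a largest deviation of 0.000277. The design had assumed RPKM in both columns. A count test was not run, since it needs replicates. Lengths were recovered from whole CTRL reads, rising with the unigene number (1 fitting length for 47390 of 47392 unigenes and all 77 members), and SS was rescaled to them. The recovery was tested on data simulated with these same lengths and depths. Such a test shows whether the steps return what was put in, and cannot show whether the recovered lengths are the true ones.

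The log2 ratio used a pseudocount of 0.1 RPKM, and the minimum was 1 RPKM in either library. The 95% intervals are exact Poisson for reads and Clopper-Pearson for ratios. Named were all members past 2-fold, the 10 highest, per subfamily the highest and the extreme ratios among those of at least 5 RPKM, and unigenes sharing their annotation. Other members were added after their values were seen. Members, lists and rules were chosen with earlier results of these data known, and subfamilies were assigned from annotations. Alternatives were other pseudocounts, minima, scalings and the values as deposited. Python 3.11.15, pandas 2.3.3, NumPy 2.4.6, SciPy 1.17.1 and Matplotlib 3.10.9 were used.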

Additional observations from a re-analysis of the deposited data

How the results depend on the processing

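With 2 members higher and 5 lower as reported, a pseudocount of 1 RPKM gave 0 higher and 1 lower, a minimum of 5 RPKM in either library gave 0 and 0, and removal of the running trend along the unigene number left 3 lower. The count of members below 0, 56 of 70 as reported, was 47 of 70 with that trend removed. It was 51 of 71 with SS scaled by the median ratio of reads, which moved the median over all unigenes from -0.063 to 0.004. The SS values as deposited gave 19 higher and 21 lower with a median log2 ratio of -0.046. Of the alternatives chosen after seeing the data, summing reads per match gave 1 higher and 3 lower, and keeping only members of at least 1000 bp gave 1 higher and 0 lower. The other alternatives gave 2 higher, 5 to 7 lower and, like those above other than the deposited values, a median between -0.227 and -0.135. Of the single log2 ratios, 54 of 68 moved beyond their counting interval with the deposited values, 14 of 70 without the trend, and at most 5 under any other setting. No paired analysis was possible because each group has 1 library. Members of up to 600 bp rest on few reads, and spread between pools of seedlings is unknown. No sequence was used.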
